A study of Mus musculus with 12 samples.

Results

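A set of 52 mouse genes that act in DNA replication and mitosis was followed through RNA-seq of Ocy454 cells. The genes were taken by name and matched to Ensembl gene identifiers of the mm9 era, and each of the 52 matched 1 of the 37583 identifiers counted. They were grouped by the part they play: 20 genes of the G1/S transition and replication, 8 cyclins, 18 genes of G2 and mitosis (G2/M), and 6 inhibitors of cyclin-dependent kinases (CDKs). One of them, Cdkn1c, which encodes the CDK inhibitor p57, had 0 counts in all 12 libraries. The other 51 were among the 14904 genes tested, of 24360 with any count.

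Ocy454 is a mouse osteocyte line from long bone. Osteocytes are the cells embedded in bone matrix that sense mechanical load. Groups of 3 libraries, 4 in all, were compared. Control cells, which the labels describe as original, were left static or subjected to fluid flow shear stress (FFSS), and cells labelled DKO, with HDAC4 and HDAC5 deleted, were treated in the same 2 ways. The deleted genes encode histone deacetylases of class IIa, which bind MEF2 factors in the nucleus and keep their targets down. All cells had been cultured for 14 days at 37 °C, and FFSS and the matching static period lasted 3 h. FFSS was made by orbital rotation of the dishes on a heated platform. Per the study's methods, the cells derive from a single-cell clone that carries a temperature-sensitive T antigen, and the move to 37 °C inactivates it. T antigen is a viral protein that binds Rb and p53 and so drives cells into the cycle. How much of its activity remained was not measured here. Each genotype was 1 line, so an effect of the deletion and any other difference between the lines cannot be told apart. The sources used here do not say whether the 3 libraries of a group came from separate cultures, so p-values measure only the spread between libraries, which may be technical.

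The comparisons ask whether the cell cycle programme of these osteocytes differs with the deletion, and whether it moves within 3 h of FFSS. Before a cell replicates its DNA, CDC6 and CDT1 load the ring of MCM proteins onto replication origins, and CDC45 and the GINS proteins then turn that ring into an active helicase. Many of these genes are switched on at the G1/S transition by E2F transcription factors, which are held in check by Rb until cyclin D and cyclin E kinases inactivate it. Genes of G2 and mitosis are switched on later through promoter elements called the CHR and the CCAAT box, by complexes that include FOXM1. CDK inhibitors such as p21 (Cdkn1a) and p16 (Cdkn2a) oppose the cyclin kinases. Osteocytes in bone are regarded as having left the cell cycle.

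Letters of these elements were searched on both strands of RefSeq promoter windows (GRCm38.p6, 250 bases before to 50 after each start), which were found for 38 of the 52 genes. E2F letters (TTTCCCGC, TTTGGCGC, TTTCGCGC or TTTGCCGC) stood in the windows of 8 of 16 G1/S genes (50%) and of 1 of 13 G2/M genes (7.69%), against 2.61% of all 27025 genes with a window. CHR letters (TTTGAA) together with CCAAT stood in 10 of 13 G2/M genes (76.9%), in 3 of 16 G1/S genes (18.8%) and in 7.97% of all genes. CHR letters, counted by themselves, stood in 10 of 13 G2/M genes, 3 of 16 G1/S genes and 20.2% of all genes. CCAAT was common in both classes, in 12 of 13 G2/M genes (92.3%) and 12 of 16 G1/S genes (75%), against 41.1% of all genes. A match describes these letters only and is not a measured binding site.

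The promoters of 6 genes that hold such letters are given as examples. Each shows the 160 bases before the start on the strand of the gene. Capitals mark the letters searched, in either direction. The 6 were picked by name and do not show how common the letters are in a class. Mcm5 (chr8:75109349-75109508, plus strand) and Mcm6 (chr1:128359706-128359865, minus strand) encode helicase subunits and hold E2F and CCAAT letters, and the E2F letters overlap on opposite strands where a run is longer than 8 capitals. Cdc20 (chr4:118437344-118437503, minus strand), Top2a (chr11:99024190-99024349, minus strand) and Kif11 (chr19:37376222-37376381, plus strand) are mitotic genes and hold CHR and CCAAT letters. Cdk1 (chr10:69352913-69353072, minus strand), the kinase of mitotic entry, holds all 3.
Mcm5: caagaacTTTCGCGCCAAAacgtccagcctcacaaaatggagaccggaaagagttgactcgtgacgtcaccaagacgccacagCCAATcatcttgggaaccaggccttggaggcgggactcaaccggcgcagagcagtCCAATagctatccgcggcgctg
Mcm6: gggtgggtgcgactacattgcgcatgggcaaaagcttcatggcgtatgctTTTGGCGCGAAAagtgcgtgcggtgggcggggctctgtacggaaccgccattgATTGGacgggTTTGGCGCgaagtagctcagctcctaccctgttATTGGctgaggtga
Cdk1: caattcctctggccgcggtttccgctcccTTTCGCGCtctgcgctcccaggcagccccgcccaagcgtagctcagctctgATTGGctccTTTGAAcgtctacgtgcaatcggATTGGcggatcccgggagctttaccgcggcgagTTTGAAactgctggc
Cdc20: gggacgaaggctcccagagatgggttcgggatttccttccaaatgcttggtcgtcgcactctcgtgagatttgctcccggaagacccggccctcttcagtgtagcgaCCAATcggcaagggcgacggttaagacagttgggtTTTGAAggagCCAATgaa
Top2a: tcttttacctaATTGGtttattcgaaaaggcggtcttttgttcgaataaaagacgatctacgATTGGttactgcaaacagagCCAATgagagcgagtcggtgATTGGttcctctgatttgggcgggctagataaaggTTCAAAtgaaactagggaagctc
Kif11: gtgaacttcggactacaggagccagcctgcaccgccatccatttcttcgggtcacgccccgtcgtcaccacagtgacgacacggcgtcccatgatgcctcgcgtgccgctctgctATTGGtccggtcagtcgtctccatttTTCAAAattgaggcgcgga

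Each library held 17.6 to 19.2 M reads counted in genes, and in the 51 genes tested the lowest count was 166. The control FFSS libraries differed among themselves. Control FFSS replicate 1 differed from replicates 2 and 3 by a chi-square of 63.8 and 58.0 per degree of freedom over genes, whereas the other replicate pairs lay between 2.02 and 6.45. The share of reads outside annotated genes was 5.10 to 5.21% in control static libraries, 5.87% in control FFSS replicate 1, 9.19% and 10.04% in its replicates 2 and 3, 7.07 to 7.14% in DKO static and 7.93 to 8.55% in DKO FFSS libraries. All libraries share 1 estimate of spread in the fit, so the difference within control FFSS bears also on comparisons of other groups. Counts of the 51 genes past the test are therefore also given without control FFSS replicate 1, as are the genes whose call changed. That fit keeps the 2 libraries with the highest shares and factors, and which libraries are atypical was not tested. It removes the library that differed, so its narrower spread follows in part from that choice. Its adjusted p-values are to be read with that limit. The targeted genes were lower in DKO static than in control static cells but not lost: the Hdac4 identifier that spans the gene body had 220 to 309 against 458 to 550 counts, and Hdac5 had 1461 to 1634 against 2421 to 2706. Under FFSS the Hdac5 counts of the genotypes overlapped (1553 to 1687 in DKO and 1457 to 1755 in control cells). A count per gene does not show whether a transcript is intact. Most osteocyte markers were low in control cells, where Sost had a mean of 5.35 CPM (counts relative to library totals scaled by TMM, a factor for library composition) in static culture against 2063 CPM in DKO cells. The summed CPM of 6 osteocyte markers was 78.1 to 117 in control static and 3602 to 3689 in DKO static libraries, and Fgf23 was at 0 in 9 of 12 libraries. Pdpn of that list went the other way, with a mean of 28.4 CPM in control static and 5.11 CPM in DKO static cells. Osteoblast markers (5 matched) summed to 19434 to 23457 CPM in control static, 6353 to 19674 in control FFSS, 58036 to 65445 in DKO static and 60261 to 62330 in DKO FFSS libraries. Chondrocyte markers (5 genes) summed to 77.4 to 102 CPM in control static, 50.1 to 82.5 in control FFSS, 2361 to 2950 in DKO static and 2004 to 2478 in DKO FFSS libraries. The part of these differences in the results on the cell cycle genes was not tested. Of 5 blood cell markers only Cd68 was well above 1 CPM, and the list summed to 24.2 to 28.6 CPM in control static, 15.8 to 23.7 in control FFSS, 3.35 to 3.84 in DKO static and 3.59 to 3.93 in DKO FFSS libraries, while Ptprc was at 0 in 6 libraries and Tyrobp in 11. The 5 endothelial markers summed to at most 1.03 CPM in any library and the 4 fat cell markers, mostly Fabp4, to at most 2.53 CPM.

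Levels per length of transcript were compared among the 51 genes only, not with other genes. On the RPKM scale (CPM divided by exonic length), Cdkn2a was the highest of the 51 in all 4 groups, at 368 and 374 in static and FFSS-treated control cells and 366 and 370 in those of the DKO line. Mcm2, a helicase subunit, followed in control static cells at 197, and then Cdkn1a at 180, Mcm6 at 143, Mcm3 at 141, Cdt1 at 123 and Mcm4 at 116. Mcm6 (143 ± 1.59) and Mcm3 (141 ± 3.58, SD, n = 3 each) did not differ beyond their spread. Among the 18 G2/M genes Cdc20, the activator of the ligase that ends metaphase, was highest at 71.1 RPKM, followed by Top2a at 65.8 and Foxm1 at 59.2. The lowest levels were those of E2f2 (3.11), Ccnd2 (3.50), Mcm10 (8.81) and Ccne1 (9.12). Counting was not stranded, and exons of 13 of the genes overlap another gene, most of all Gins2 (67.3% of its exonic length, with Gse1), Kif20a (32.3%, with Cdc23) and Ccnd1 (21.3%, with Oraov1), so the counts of these 3 are less certain.

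**Figure D1:**
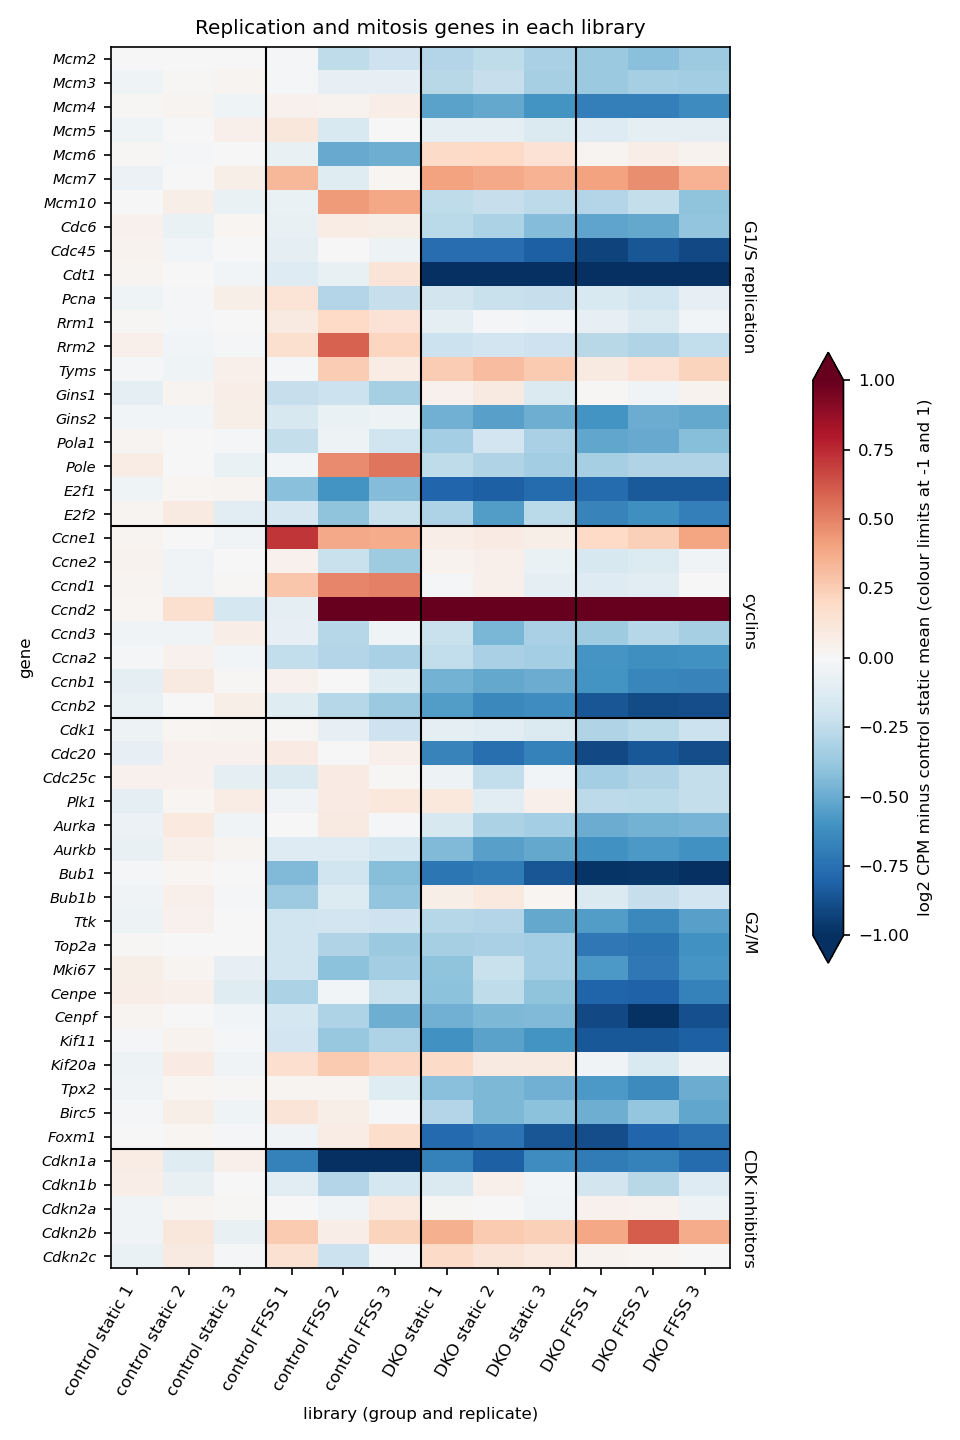
Log2 CPM of each of the 51 genes tested (lines, grouped by role) in each of the 12 libraries (columns), minus the mean of the 3 control static libraries, with colours limited at −1 and 1. The DKO columns are blue for most G1/S and G2/M genes, Cdt1 at the limit, and control FFSS replicate 1 differs from replicates 2 and 3 at Cdkn1a, Ccnd2, Pole, Mcm10 and Mcm6.

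In static culture DKO cells had less of most replication and mitosis transcripts than control cells. Of the 51 genes, 28 were lower and 4 higher at an adjusted p under 0.05 (edgeR quasi-likelihood test), against 27.2% lower and 27% higher among all 14904 genes. With the study's limit of more than a 2-fold change as well, 2 were called, Cdt1 lower and Ccnd2 higher, against 15.3% of all genes. The median log2 fold change was −0.29 over the 51 genes and 0.01 over all genes. Among G2/M genes 13 of 18 were lower and 0 higher (median −0.36), among G1/S genes 11 of 20 were lower and 2 higher (median −0.28), among cyclins 4 of 8 were lower and 1 higher, and among CDK inhibitors 0 of 5 were lower and 1 higher. When control FFSS replicate 1, which is not in this comparison, was left out, the values hardly moved but 34 genes were lower and 7 higher, against 32% of all genes in each direction. In that fit 14 G2/M, 15 G1/S and 4 cyclin genes and 1 inhibitor were lower, and 1, 3, 1 and 2 were higher. The 9 genes that passed then and not with all libraries were Mcm5, Mcm10, Pcna, Rrm2, Cdk1 and Cdkn1a, all lower, and Mcm6, Kif20a and Cdkn2c, all higher. In bulk RNA, fewer cells in cycle and less of these RNAs per cell cannot be told apart.

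Among G1/S genes the lowest value belonged to Cdt1, which brings the MCM ring to origins. It stood at 274, 269 and 265 CPM in control static and 129, 128 and 132 CPM in DKO static libraries. The groups were far apart with little spread within either. Cdt1 fell by 1.05 on the log2 scale (edgeR adjusted p = 8.16e-09, SE 0.06). Cdc45, which completes the helicase, had 114, 108 and 110 CPM in control and 65.1, 65.2 and 62.9 CPM in DKO cells, a log2 fold change of −0.78 (edgeR adjusted p = 2.01e-08, SE 0.05). E2f1, the transcription factor of the G1/S transition, had 188, 196 and 198 CPM in control and 112, 110 and 114 CPM in DKO cells, a log2 fold change of −0.79 (edgeR adjusted p = 4.61e-08, SE 0.06). For each of these genes, all 3 DKO libraries were below all 3 control libraries. That held for 35 of the 51 genes, with 8 above, against 34.1% below and 34.9% above among all genes. Separation of the libraries was common among all genes in this comparison, so it is no mark of the genes named here and below.

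The 6 subunits of the MCM ring did not move as one. Mcm4 fell the most, by 0.55 on the log2 scale (edgeR adjusted p = 4.59e-07), followed by Mcm2 with −0.29 and Mcm3 with −0.28. Mcm5 had a log2 fold change of −0.11 and Mcm6 one of 0.18, and neither passed the test, although Mcm5 did (−0.19) when libraries were scaled by their totals alone. Mcm7 rose by 0.38 (edgeR adjusted p = 0.00234, SE 0.09), from 204, 212 and 221 CPM in control to 281, 277 and 271 CPM in DKO cells, with all DKO libraries above all control libraries. Mcm2 was at 663, 662 and 668 CPM in control and 542, 556 and 530 CPM in DKO cells, and Mcm5 at 321, 328 and 340 CPM against 309, 309 and 299 CPM, so that neither gene's groups overlapped although the gap in Mcm5 was narrow. Mcm7 shares 12.6% of its exonic length with Cops6, Ap4m1 and 2 microRNA genes. Tyms, which makes thymidylate, was the only other G1/S gene that rose, by 0.28 (edgeR adjusted p = 0.00348), and it no longer passed with totals alone (0.19). The sliding clamp Pcna had 234, 239 and 250 CPM in control and 212, 206 and 206 CPM in DKO cells, and Rrm2, the regulated subunit of ribonucleotide reductase, 136, 129 and 130 CPM against 114, 115 and 114 CPM. Both were lower in every DKO library, yet Pcna (log2 fold change −0.21, edgeR adjusted p = 0.0556) and Rrm2 (−0.21, edgeR adjusted p = 0.0613) did not pass, nor did the other subunit Rrm1 (−0.04). Gins2 fell by 0.51, while its partner Gins1 had 22.4, 24.2 and 24.8 CPM in control and 24.5, 25.4 and 21.5 CPM in DKO cells and did not pass.

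Among G2/M genes, Foxm1 had the lowest value. Its levels were 325, 331 and 321 CPM in control static and 190, 195 and 180 CPM in DKO cells, a log2 fold change of −0.79 (edgeR adjusted p = 1.28e-07, SE 0.06). The checkpoint kinase Bub1 (−0.76) and Cdc20 (−0.70) were near it, followed by the spindle motor Kif11 (−0.58) and the kinase Aurkb (−0.50). Aurka, a kinase of the spindle poles, had the smallest change among those that passed, with 72.0, 80.3 and 73.3 CPM in control and 67.1, 60.4 and 59.5 CPM in DKO cells (log2 fold change −0.27, edgeR adjusted p = 0.00257, SE 0.06). The 5 that did not pass were Cdk1 (−0.12), Cdc25c (−0.11), Plk1 (0.02), Bub1b (0.06) and Kif20a (0.12). Of these, Cdk1 (edgeR adjusted p = 0.0323) and Kif20a (edgeR adjusted p = 0.0408) passed in the fit without control FFSS replicate 1. Cdk1 was at 130, 137 and 138 CPM in control and 127, 126 and 122 CPM in DKO cells, just clear of each other, and Plk1, a kinase that acts through mitosis, at 57.8, 62.5 and 65.0 CPM against 66.2, 57.5 and 63.9 CPM, which overlapped. Mki67, which encodes the proliferation marker Ki-67, was at 322, 315 and 292 CPM in control and 234, 265 and 244 CPM in DKO cells and fell by 0.32 (edgeR adjusted p = 0.00126). All 3 DKO values were below the control values.

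The cyclins differed among themselves. The B-type cyclins Ccnb2 (log2 fold change −0.61) and Ccnb1 (−0.50) fell, as did Ccna2 (−0.31), the cyclin of S phase and G2, and Ccnd3 (−0.33), a cyclin of the G1 phase. Ccnb2 went from 135, 141 and 147 CPM in control to 95.6, 89.9 and 91.8 CPM in DKO cells, Ccnb1 from 41.5, 47.2 and 44.7 CPM to 31.9, 31.1 and 31.5 CPM, and Ccna2 from 281, 293 and 278 CPM to 239, 226 and 225 CPM. Ccnd3 had 102, 102 and 109 CPM in control and 89.7, 76.0 and 83.4 CPM in DKO cells. None of these 4 overlapped between the genotypes. Among all genes 34.1% were separated lower in this way and 34.9% higher. The E-type cyclins Ccne1 (0.07) and Ccne2 (0.01) and Ccnd1 (−0.02) did not pass the test. Ccne2 was at 108, 103 and 105 CPM in control and 108, 109 and 101 CPM in DKO cells, which overlapped. Ccnd2, another D-type cyclin of the G1 phase, went the other way. It had 20.1, 22.2 and 17.5 CPM in control static and 60.7, 61.5 and 60.5 CPM in DKO static libraries, with no overlap. The rise of Ccnd2 was 1.61 (edgeR adjusted p = 0.0152, SE 0.46). Without control FFSS replicate 1, which is not in this comparison but shares the estimate of spread, the value was 1.61 with an SE of 0.08. With the share of reads outside genes as a covariate, Ccnd2 was at 0.61 and no longer passed (edgeR adjusted p = 0.0894).

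Of the 5 CDK inhibitors tested, Cdkn2b was the one that passed in static culture. Cdkn2b, which encodes p15, had 44.1, 48.9 and 43.0 CPM in control static and 58.0, 54.3 and 53.3 CPM in DKO static libraries and rose by 0.28 (edgeR adjusted p = 0.00848, SE 0.08). Its neighbour on mm9 chromosome 4, Cdkn2a (chr4:88920377-88940557, minus strand; Cdkn2b lies at chr4:88952198-88956941), which encodes p16 and p19ARF and whose products gene counts do not separate, had 420, 438 and 433 CPM in control and 434, 432 and 419 CPM in DKO cells. The Cdkn2a ranges overlapped, with a log2 fold change of −0.01 (SE 0.05). Cdkn1b, the p27 gene, had 128, 116 and 122 CPM in control and 110, 126 and 120 CPM in DKO cells (−0.04), and Cdkn2c, the p18 gene, 129, 144 and 133 CPM against 154, 148 and 145 CPM (0.14). Neither passed, although the Cdkn2c values were all higher in DKO cells. Cdkn1a was at 419, 367 and 412 CPM in control and 249, 226 and 259 CPM in DKO cells, with no overlap, yet its log2 fold change of −0.71 (SE 0.39) did not pass (edgeR adjusted p = 0.159). Without control FFSS replicate 1 the same value had an SE of 0.05 and passed (edgeR adjusted p = 1.38e-11), whereas with the share of reads outside genes as a covariate it turned to 0.10 (edgeR adjusted p = 0.608).

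**Figure D2:**
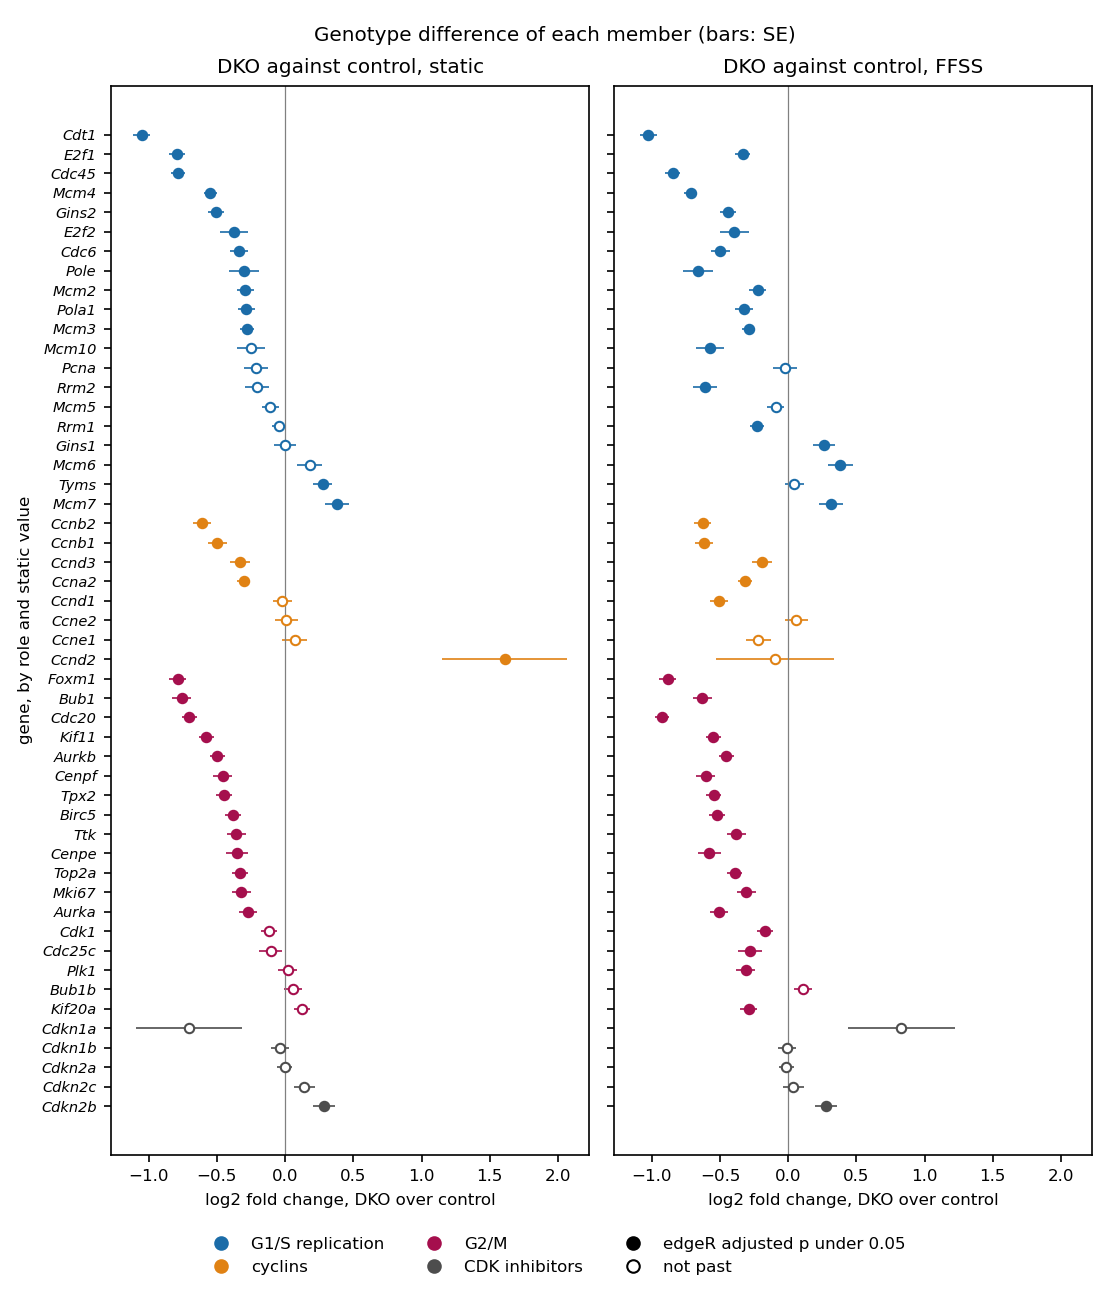
Log2 fold change of DKO over control cells with its SE for each of the 51 genes, in static culture (left) and under FFSS (right), coloured by role and sorted by the static value within each role, with filled symbols for an edgeR adjusted p under 0.05. Most values lie left of 0, Cdt1 at −1.05 and −1.02, while Mcm7 and Cdkn2b lie right of 0 in both panels and Ccnd2 and Cdkn1a change place.

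Under FFSS, 36 of the 51 genes were lower and 4 higher in DKO than in control cells at the adjusted p (edgeR), against 29.6% lower and 27% higher among all genes. With the 2-fold limit 1 gene, Cdt1, was called (−1.02), against 17.2% of all genes. Without control FFSS replicate 1 there were 36 lower and 7 higher, against 34.1% and 31% of all genes, and 16 of 18 G2/M genes were lower, since Cdk1 no longer passed (edgeR adjusted p = 0.055). Pcna (0.12), Ccne2 (0.18), Cdkn1a and Ccnd2 passed in that fit and not with all libraries. Among G2/M genes 17 of 18 were lower (median −0.48, against −0.05 over all genes), and Bub1b (0.11) was the one that did not pass. Among G1/S genes 14 of 20 were lower and 3 were higher, Mcm6 (0.38), Mcm7 (0.31) and Gins1 (0.26). Scaling by library totals alone moved the median of all genes by −0.196, and of these 3 only Mcm6 then passed. In all, 1 of the 51 genes was then higher and 41 lower, against 18.5% and 42.2% of all genes. Cdc20 was at 140, 133 and 137 CPM in control FFSS and 70.7, 73.6 and 71.8 CPM in DKO FFSS libraries, a log2 fold change of −0.93 (edgeR adjusted p = 6.9e-09, SE 0.05). Ccnd1 and Plk1, which did not pass in static culture, passed under FFSS with −0.51 and −0.31, and Cdkn1a (0.83, edgeR adjusted p = 0.103) and Ccnd2 (−0.10) did not pass. Without control FFSS replicate 1 both passed, Cdkn1a with 1.60 (edgeR adjusted p = 4.18e-17) and Ccnd2 with −0.52 (edgeR adjusted p = 4.42e-07). With the share of reads outside genes as a covariate Cdkn1a passed with 0.97 and Ccnd2 turned to 0.23 without passing. The static and the FFSS comparison of the genotypes share no library.

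Other replication and mitosis genes were also mostly lower in DKO static cells. Among all genes 27.2% were lower and 27% higher. Of 27 further replication genes, 19 were lower and 3 higher (median −0.30), with Chaf1b, a histone chaperone subunit, at −1.10 and the DNA ligase Lig1 at −0.84. Pole2 (0.40) and Gins3 (0.26) had the highest values of those that passed. Of 35 further mitosis genes, 22 were lower and 1 higher (median −0.29). Anln, an actin-binding protein of the cleavage furrow, was at −1.23 and the centrosome kinase Nek2 at −0.88, whereas Ect2, which starts cytokinesis, rose by 0.57. Of 23 regulators around Rb, E2F and the CDKs, 11 were lower and 6 higher, the latter near the share of all genes, with the kinase Cdk6 at −1.55 and Myc at −1.07 at one end and E2f5 (0.70) at the other. Of 14 genes around p53, 6 were lower and 3 higher, from −1.41 for Sesn2 to 1.21 for Trp53inp1. With control FFSS replicate 1 left out these counts were 20 lower and 3 higher of the replication genes, 25 and 3 of the mitosis genes, 13 and 7 of the regulators and 6 and 5 of the genes around p53, against 32% of all genes in each direction.

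By promoter letters, and against the same shares of all genes, 11 of the 14 genes with CHR and CCAAT letters were lower in DKO static cells and 0 higher (median −0.35). Of the 10 genes with E2F letters, 5 were lower and 1 higher (median −0.20). With control FFSS replicate 1 left out, and 32% of all genes in each direction, 12 of the 14 were lower and 0 higher, and 7 of the 10 were lower and 2 higher. Under FFSS, where 29.6% of all genes were lower and 27% higher, these counts were 13 lower of 14 and 6 lower with 2 higher of 10, and without control FFSS replicate 1 they were 12 lower of 14 and 5 lower with 2 higher of 10, against 34.1% lower and 31% higher. The 2 sets overlap and are not the role groups. Cdk1 and E2f2 are in both, Mcm2 and Cdc45 are among the 14, and Cdkn2a is among the 10. These counts are descriptions of the 38 genes with a window.

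In control cells, the widest changes with FFSS for 3 h were those of a cyclin, Ccnd2, and an inhibitor, Cdkn1a, and most replication genes did not pass the test. Of the 51 genes, 7 were higher and 15 lower at the adjusted p (edgeR), against 17.7% higher and 18.1% lower among all genes. With the 2-fold limit 2 were called, Ccnd2 higher and Cdkn1a lower, against 5.93% of all genes. The median log2 fold change was −0.05 over the 51 genes and 0.01 over all genes. All 3 FFSS libraries lay below all 3 static ones for 20 of the 51 genes and above them for 6, against 22% and 19.3% of all genes. G2/M genes accounted for 8 of the lower calls and 1 higher call (median −0.12), and G1/S genes for 3 in each direction (median −0.03). The split depended on the scaling. With library totals alone, which moved the median of all genes by 0.124, it became 15 higher and 9 lower, and 11 genes changed sign. Among all genes 27.5% were then higher and 11.2% lower. With the 6 libraries of this comparison alone it was 2 higher and 7 lower, against 8.25% and 8.28% of all genes. Without control FFSS replicate 1 it was 10 higher and 21 lower, against 26.8% and 28.4% of all genes, with 2 higher and 9 lower among G2/M genes and 5 higher and 6 lower among G1/S genes. The genes that passed in that fit and not with all libraries were Mcm10, Tyms and Foxm1, higher, and Mcm2, Pcna, E2f2, Ccne2, Ccnd3 and Cdk1, lower.

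Cdkn1a, the p21 gene and a target of p53, had 419, 367 and 412 CPM in static and 250, 75.9 and 85.0 CPM in FFSS-treated control cells. All FFSS libraries were below all static libraries, and replicate 1 was far above the other two. The mean was 400 ± 28.3 CPM in static and 137 ± 98.0 CPM under FFSS (SD, n = 3 each). Cdkn1a fell by 1.55 on the log2 scale (edgeR adjusted p = 0.0168, SE 0.40), and by 2.31 without replicate 1 (edgeR adjusted p = 1.74e-19). Ccnd2 went from 20.1, 22.2 and 17.5 CPM to 18.6, 88.7 and 73.2 CPM. Replicate 1 lay within the static range, so the groups overlapped, and the rise of 1.59 (edgeR adjusted p = 0.0261, SE 0.46) rests on replicates 2 and 3. Without replicate 1 the rise of Ccnd2 was 2.02. With the share of reads outside genes as a covariate the values were −0.44 for Cdkn1a and −0.29 for Ccnd2, and neither passed. That share itself separates replicate 1 from replicates 2 and 3, so this fit is not an independent check. Single libraries decided both calls: Cdkn1a no longer passed without control FFSS replicate 3 (−1.30, edgeR adjusted p = 0.0507), and Ccnd2 passed in no fit that left out control FFSS replicate 2 (1.20) or 3 (1.43) or any 1 control static library (1.51 to 1.68), with edgeR adjusted p-values of 0.0581 to 0.0824. With the 6 libraries of the comparison alone neither passed (Cdkn1a −1.54, edgeR adjusted p = 0.0694; Ccnd2 1.60, edgeR adjusted p = 0.0889).

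Ccnd1 and Ccne1 rose in all 3 control FFSS libraries. Ccnd1, the D-type cyclin most tied to growth signals, went from 123, 118 and 121 CPM to 146, 170 and 171 CPM. The groups did not overlap, and the rise was 0.43 (edgeR adjusted p = 0.000514, SE 0.07). Ccne1, a partner of CDK2 at the G1/S transition, went from 24.8, 24.4 and 23.6 CPM to 39.9, 31.6 and 31.4 CPM. Its highest value was in replicate 1, and the rise was 0.50 (edgeR adjusted p = 0.00137, SE 0.09). Both also passed in all 21 alternative fits, with values between 0.23 (the covariate) and 0.56 for Ccnd1 and between 0.38 and 0.75 (the covariate) for Ccne1. Without replicate 1 they were 0.50 and 0.38.

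E2f1 fell in the same cells, from 188, 196 and 198 CPM to 145, 128 and 144 CPM. All 3 FFSS libraries were below the static ones. The fall of E2f1 was 0.48 (edgeR adjusted p = 4.92e-05, SE 0.06), and it also passed in all 21 alternative fits, with −0.52 without replicate 1. Mcm6 fell by 0.34 (edgeR adjusted p = 0.0111), mostly through replicates 2 and 3 with 440 and 446 CPM against 594 CPM in replicate 1 and 617 to 630 CPM in static cells. Pole, the catalytic subunit of a replicative polymerase, had 123, 117 and 112 CPM in static and 115, 163 and 170 CPM in FFSS cells, so that replicate 1 lay within the static range and only replicates 2 and 3 were above it. The rise of Pole, 0.35 (edgeR adjusted p = 0.0263), turned to −0.11 with the share of reads outside genes as a covariate. Rrm2 rose by 0.34 (edgeR adjusted p = 0.0097), from 136, 129 and 130 CPM to 148, 199 and 153 CPM, highest in replicate 2. Without replicate 1 the values were −0.50 for Mcm6, 0.50 for Pole and 0.42 for Rrm2, and all 3 passed. None of the 3 passed with the 6 libraries of the comparison alone (−0.33, 0.36 and 0.34) or with the covariate, which gave −0.01 for Mcm6 and 0.17 for Rrm2. Mcm6 no longer passed without control FFSS replicate 3 (−0.27) either, nor Pole without control FFSS replicate 2 (0.28) or 3 (0.25) or control static replicate 2 (0.35) or 3 (0.32). Mcm2 (−0.16), Mcm5 (−0.01) and Pcna (−0.12) did not pass. Under FFSS they had 654, 558 and 574.7 CPM (Mcm2), 356, 296 and 328 CPM (Mcm5) and 265, 197 and 205 CPM (Pcna), and replicate 1 was the highest of the 3 in each.

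Among mitotic genes the changes with FFSS in control cells were small. Bub1 had the lowest value, from 101, 104 and 102 CPM to 75.5, 89.2 and 76.1 CPM (log2 fold change −0.35, edgeR adjusted p = 0.00177, SE 0.07). Top2a, which untangles chromosomes, went from 603, 594 and 594 CPM to 520, 485 and 462 CPM (−0.29), and Mki67 from 322, 315 and 292 CPM to 270, 233 and 243 CPM (−0.32). In Bub1, Top2a and Mki67 the static and FFSS libraries did not overlap. Among all genes 22% were separated lower in this way and 19.3% higher. Kif20a, a motor of cytokinesis, was the one G2/M gene that rose, from 76.3, 83.9 and 77.3 CPM to 88.8, 94.9 and 91.4 CPM (0.21, edgeR adjusted p = 0.0148, SE 0.06). Kif20a no longer passed without control static replicate 1 or 3 (0.19 and 0.20), with the 6 libraries of the comparison alone (0.22, edgeR adjusted p = 0.0651) or with the covariate (0.16, edgeR adjusted p = 0.227). Foxm1 (0.08), Plk1 (0.05), Cdc20 (0.04) and Cdk1 (−0.09) did not pass. Under FFSS Foxm1 stood at 318, 343 and 368 CPM, Plk1 at 60.2, 65.5 and 66.4 CPM and Cdk1 at 136, 127 and 117 CPM, each overlapping its static range.

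The remaining cyclins and inhibitors moved little with FFSS in control cells. Ccna2 went to 240, 232 and 226 CPM, below every static library, and fell by 0.29 (edgeR adjusted p = 0.000842). Ccnb2 went to 130, 116 and 109 CPM and fell by 0.25, a call lost with the 6 libraries alone (−0.25, edgeR adjusted p = 0.0676) and with the covariate (−0.07, edgeR adjusted p = 0.571). Ccnb1 stood at 45.8, 44.4 and 40.9 CPM, Ccnd3 at 98.4, 85.5 and 101 CPM (−0.14) and Ccne2 at 108, 90.0 and 82.2 CPM (−0.17). Ccnb1 and Ccne2 overlapped static cells, and Ccnd3 lay just below them without passing. Cdkn1b stood at 114, 99.8 and 108 CPM, Cdkn2a at 432, 420 and 460 CPM, Cdkn2b at 54.4, 47.4 and 52.8 CPM and Cdkn2c at 150, 116 and 134 CPM. Of these 4 only Cdkn1b was below all static libraries. By the test, Ccnb1 (−0.03) and the inhibitors Cdkn2a (0.02), Cdkn2c (−0.02) and Cdkn2b (0.18) did not pass and Cdkn1b fell by 0.19. With totals alone Ccnb2 and Cdkn1b no longer passed and Cdkn2b did (0.31). Cdkn1b passed in 8 of 21 alternative fits, between −0.23 and −0.06.

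**Figure D3:**
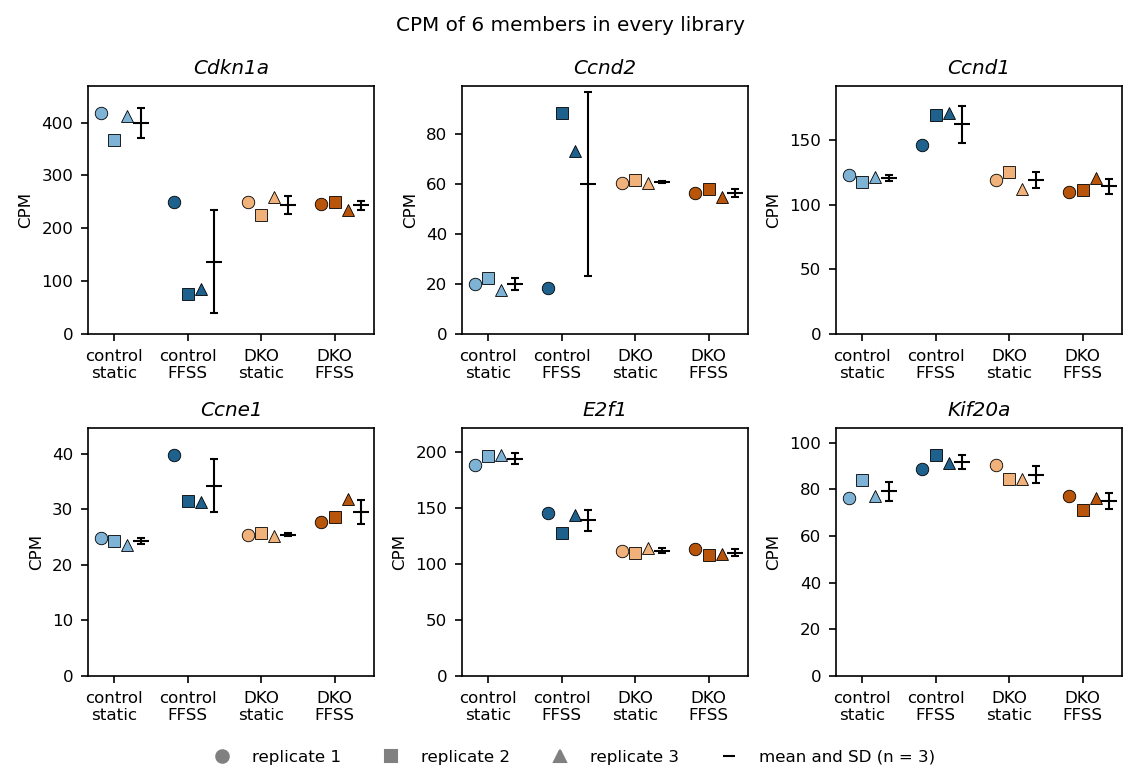
CPM of Cdkn1a, Ccnd2, Ccnd1, Ccne1, E2f1 and Kif20a (vertical axes from 0) in each library of the 4 groups, with symbols for replicates 1 to 3 and the mean and SD beside them. Control FFSS replicate 1 sits at 250 CPM for Cdkn1a and 18.6 CPM for Ccnd2, away from replicates 2 and 3, and the DKO groups lie close together for Cdkn1a, Ccnd2, Ccnd1 and E2f1, while all DKO FFSS libraries are lower for Kif20a and higher for Ccne1.

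The further genes of the pathways moved in both directions with FFSS in control cells, where 17.7% of all genes were higher and 18.1% lower. Of 27 replication genes, 2 were higher (Orc2 by 0.45 and Clspn by 0.23) and 3 lower, and of 35 mitosis genes 4 were higher and 10 lower, from Ube2c (−0.55) and Spc25 (−0.46) to Espl1 (0.54) and Incenp (0.40). Among the 23 regulators 5 were higher and 5 lower, led by Cdk6, the kinase that cyclin D activates, at 1.42 and Rb1 at −0.87. Of the 14 genes around p53, 5 were higher and 1 lower, with Btg2 at 0.92 and Aen at 0.60 among those that rose and Bax (−0.26) as the one that fell. When control FFSS replicate 1 was left out, and 26.8% of all genes were higher and 28.4% lower, these counts were 4 and 7 of the replication genes, 5 and 12 of the mitosis genes, 8 and 10 of the regulators and 6 and 4 of the genes around p53, higher and lower.

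In DKO cells FFSS lowered a few mitotic genes and Ccna2, and 0 of the 51 genes was higher. The count of lower genes was 5 at the adjusted p (edgeR), against 0.376% higher and 0.497% lower among all genes, and with the 2-fold limit 0 genes were called, against 0.0872% of all genes. The 5 were Cenpf (−0.47) and Cenpe (−0.41), proteins of the kinetochore, Top2a (−0.35), Ccna2 (−0.30) and Kif11 (−0.26). At an unadjusted p under 0.05, 20 genes were lower and 2 higher, against 7.36% and 6.16% of all genes. DESeq2 passed 8 lower, against 1.22% of all genes, and a fit of the 6 DKO libraries alone passed 17 lower and 1 higher, against 5.78% and 6.15%.

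Cenpf went from 106, 108 and 109 CPM in static to 78.8, 74.6 and 80.3 CPM in FFSS-treated DKO cells (edgeR adjusted p = 0.00745, SE 0.07). Top2a went from 475, 477 and 472 CPM to 365, 361 and 392 CPM (edgeR adjusted p = 0.012, SE 0.06). Kif11, the smallest of the changes that passed, went from 127, 134 and 128 CPM to 108, 108 and 110 CPM (edgeR adjusted p = 0.0432, SE 0.05). In all 3 genes the groups were clear of each other. With FFSS in DKO cells that held lower for 28 and higher for 2 of the 51 genes, against 15.9% and 14% of all genes. Ccna2, the cyclin of S phase and G2, went from 239, 226 and 225 CPM to 189, 185 and 187 CPM (edgeR adjusted p = 0.0139, SE 0.05). Mki67, Plk1 and Cdk1 did not pass. Mki67 was at 234, 265 and 244 CPM in static and 208, 189 and 206 CPM under FFSS (−0.30, edgeR adjusted p = 0.0592), and Plk1 at 66.2, 57.5 and 63.9 CPM against 51.3, 51.2 and 52.3 CPM (−0.28, edgeR adjusted p = 0.0815). Cdk1 had 109, 112 and 116 CPM under FFSS (−0.15). All 3 were lower in every FFSS library, whereas Foxm1, with 176, 188 and 194 CPM, overlapped its static range (−0.02).

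All 18 G2/M genes had a negative value in DKO cells (median −0.22, against −0.01 over all genes), and in 15 of them all 3 FFSS libraries were below all 3 static libraries, which held for 15.9% of all genes. The 20 G1/S genes had a median of −0.06, and 0 of them passed. The median over G2/M genes was −0.21, −0.24 and −0.19 in DKO FFSS replicates 1 to 3 and −0.03 to 0.03 in DKO static libraries, and over G1/S genes it was −0.08, −0.06 and −0.05. In control cells the G2/M median was −0.14, −0.06 and −0.19 in FFSS replicates 1 to 3. Of the 35 further mitosis genes 3 were lower in DKO cells (Ect2 by 0.34, Anln by 0.33 and Prc1 by 0.28) and 33 had a negative value (median −0.20), against 0.497% lower among all genes, and of the 27 further replication genes 0 passed in either direction. The 14 genes around p53 went the other way, with 1 higher and 0 lower (median 0.09), against 0.376% higher among all genes. Of the 23 regulators 0 passed. When control FFSS replicate 1, a library of the other genotype, was left out, 25 of the 35 further mitosis genes and 13 of the 18 G2/M genes were lower, with 2 G1/S genes (Mcm6 and Pola1) and 2 cyclins, against 5.66% of all genes. The G2/M genes gained were Cdk1, Cdc20, Plk1, Aurka, Bub1, Bub1b, Ttk, Mki67 and Kif20a, and of the further replication genes 1 was higher and 0 lower. In that fit 5 of the genes around p53 were higher and 1 lower, and 2 and 3 of the regulators, against 4.86% and 5.66% of all genes. The count of 5 lower among the 51 genes changed with the libraries left out, and was 17 in that fit. It was 3 without any 1 control static library, against 0.215 to 0.235% of all genes, and 1 without any 1 DKO static library, against 0.114 to 0.134%. Without DKO FFSS replicates 1, 2 and 3 it was 1, 0 and 2, against 0.127%, 0.0604% and 0.127%. All 5 genes were below their DKO static mean in each DKO FFSS library, such as Cenpf (−0.45, −0.53 and −0.42) and Kif11 (−0.27, −0.27 and −0.24).

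Cdkn1a, Ccnd2 and Ccnd1, which passed in control cells, did not pass in DKO cells, also when control FFSS replicate 1 was left out. Cdkn1a was at 249, 226 and 259 CPM in DKO static and 246, 249 and 234 CPM in DKO FFSS libraries. Ccnd2 was at 60.7, 61.5 and 60.5 CPM against 56.3, 57.9 and 54.8 CPM, and Ccnd1 at 119, 125 and 113 CPM against 110, 111 and 121 CPM. The ranges of static and FFSS libraries overlapped for Cdkn1a and Ccnd1, and all Ccnd2 values were lower under FFSS. Their log2 fold changes were −0.01, −0.11 and −0.06. With the share of reads outside genes as a covariate they were 0.43, −0.66 and −0.13, and none passed. Ccne1 had 25.4, 25.7 and 25.3 CPM in static and 27.8, 28.7 and 31.9 CPM in FFSS libraries, all higher, with a value of 0.21 (SE 0.09) that did not pass (edgeR adjusted p = 0.34). Ccne1 passed, with 0.21 (edgeR adjusted p = 0.0426), without control FFSS replicate 1, and with 0.22 (edgeR adjusted p = 0.0356) in the 6 DKO libraries alone. Under FFSS the other cyclins of DKO cells had 94.1, 95.8 and 102 CPM (Ccne2), 81.5, 85.9 and 82.7 CPM (Ccnd3), 77.9, 75.8 and 76.0 CPM (Ccnb2) and 29.3, 28.2 and 27.9 CPM (Ccnb1). The B-type cyclins were below every DKO static library, with log2 fold changes of −0.27 (edgeR adjusted p = 0.0671) and −0.15 that did not pass, although Ccnb2 did without control FFSS replicate 1 (edgeR adjusted p = 0.000597).

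Among replication genes of DKO cells, Mcm2 had 514, 498 and 518 CPM under FFSS, Mcm5 301, 310 and 310 CPM, Pcna 217, 210 and 228 CPM and Rrm2 109, 107 and 111 CPM. Mcm2 and Rrm2 were below every DKO static library, by −0.09 and −0.07. Of the inhibitors, Cdkn1b had 107, 101 and 112 CPM, Cdkn2a 443, 442 and 415 CPM, Cdkn2b 59.3, 68.9 and 58.7 CPM and Cdkn2c 139, 137 and 136 CPM. Cdkn2b was above every DKO static library (0.17) and Cdkn2c below (−0.12), and neither passed.

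**Figure D4:**
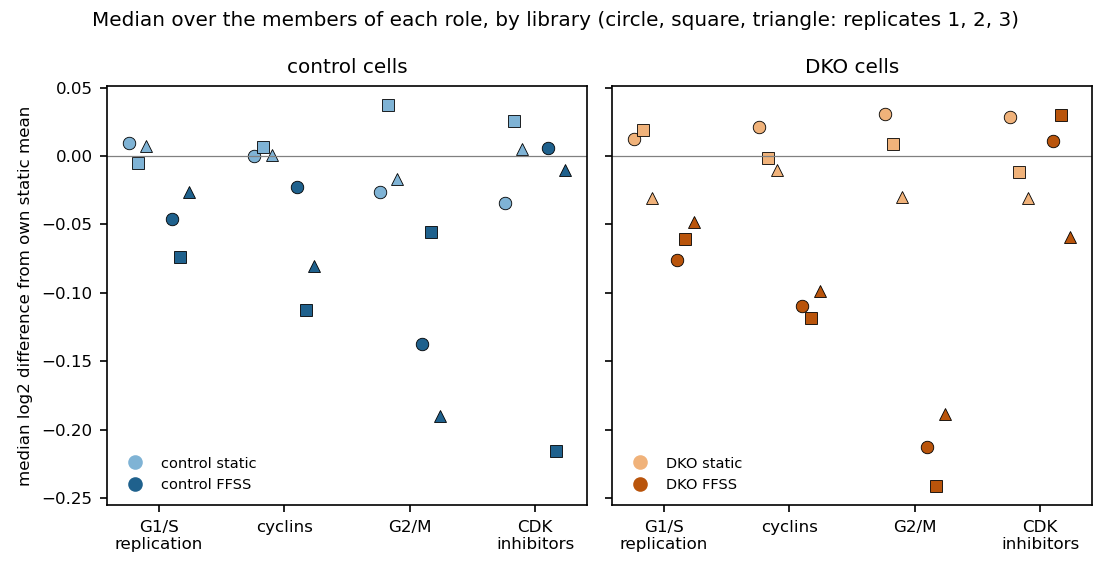
Median log2 difference of the genes of each role from the static mean of the same genotype, for each library of control cells (left) and DKO cells (right), with circles, squares and triangles for replicates 1 to 3. The 3 DKO FFSS libraries lie at −0.24 to −0.19 for G2/M genes and at −0.08 to −0.05 for G1/S genes, and the control FFSS libraries are more spread.

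Whether FFSS acted differently in the 2 genotypes was tested by the interaction, the effect in DKO cells minus that in control cells. It passed for 3 of the 51 genes, 1 higher and 2 lower (edgeR), against 2.28% higher and 1.68% lower among all genes, and with the 2-fold limit for 0 of them, against 0.651% of all genes. With totals alone it passed for 1 higher and 5 lower, against 1.6% and 4.01% of all genes. Of the 51 genes, 16 had an unadjusted p under 0.05, against 23.8% of all genes. E2f1 fell with FFSS in control cells and was at 112, 110 and 114 CPM against 114, 108 and 108 CPM in DKO cells, so that its interaction was 0.46 (edgeR adjusted p = 0.00821, SE 0.08). The FFSS level in control cells was still above both DKO groups. Ccnd1 rose in control cells and did not pass in DKO cells, with an interaction of −0.49 (edgeR adjusted p = 0.0157, SE 0.10). Kif20a rose in control cells and had 90.3, 84.3 and 84.3 CPM in static and 77.3, 71.0 and 76.5 CPM in FFSS-treated DKO cells, an interaction of −0.42 (edgeR adjusted p = 0.0185, SE 0.08). The E2f1 interaction passed with any library left out. That of Ccnd1 was lost without control static replicate 2 or 3, DKO static replicate 2 or DKO FFSS replicate 1 or 2 (−0.49 to −0.45, edgeR adjusted p = 0.0507 to 0.0588), and that of Kif20a without control static replicate 1 or 3, DKO static replicate 1 or DKO FFSS replicate 2 (−0.40 to −0.38, edgeR adjusted p = 0.0549 to 0.0647).

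The largest differences in size between the genotypes did not pass. The interaction was 1.54 for Cdkn1a (edgeR adjusted p = 0.147, SE 0.55) and −1.70 for Ccnd2 (edgeR adjusted p = 0.153, SE 0.63). Without control FFSS replicate 1 they were 2.30 (edgeR adjusted p = 8.21e-17, SE 0.09) and −2.13 (edgeR adjusted p = 4.46e-15, SE 0.11), and 4 genes were higher and 13 lower, against 20% and 17.7% of all genes. The smaller SEs follow in part from removing the library that differed, so these p-values do not measure the spread of all replicates. With the share of reads outside genes as a covariate the interaction was 0.87 for Cdkn1a, which passed (edgeR adjusted p = 0.0326), and −0.37 for Ccnd2, which did not (edgeR adjusted p = 0.653). Of the 5 genes that fell in DKO cells, Top2a (−0.06), Ccna2 (−0.01), Kif11 (0.03), Cenpf (−0.15) and Cenpe (−0.22) all had interactions that did not pass, so a difference between genotypes was not shown for them with all libraries. In the fit without control FFSS replicate 1 that of Cenpe passed (−0.28, edgeR adjusted p = 0.0186). Among the further genes, the interaction passed for 1 of 27 replication genes (Clspn, −0.35), 1 of 35 mitosis genes (Incenp, −0.36), 1 of 23 regulators (Skp2, −0.34) and 1 of 14 genes around p53 (Bax, 0.41). Among all genes it passed for 2.28% higher and 1.68% lower. With control FFSS replicate 1 left out it passed for 4 higher and 4 lower of the replication genes, 4 and 11 of the mitosis genes, 7 and 6 of the regulators and 3 and 5 of the genes around p53, against 20% higher and 17.7% lower among all genes. Of the 51 genes, those gained in that fit were Mcm6, Pcna and Cdkn1a, higher, and Mcm4, Mcm10, Rrm1, Rrm2, Tyms, Pole, Ccnd2, Cdc20, Plk1, Aurka and Cenpe, lower.

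**Figure D5:**
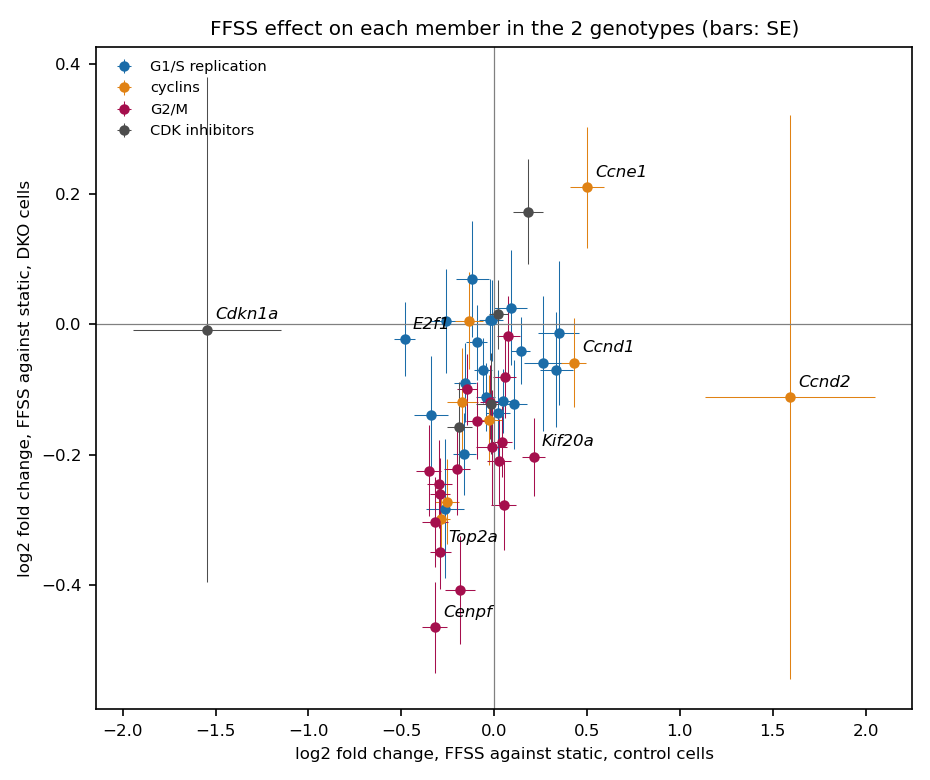
Log2 fold change of FFSS against static in control cells (horizontal) and in DKO cells (vertical, on a wider scale) for each of the 51 genes, with SE bars and colours for roles. Cdkn1a (−1.55) and Ccnd2 (1.59) lie at the ends of the horizontal axis and near 0 on the vertical one, and the G2/M genes lie below 0 on the vertical axis.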

How the data were processed

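RNA-seq was made from total RNA of 12 libraries (BGISEQ-500, single-end reads). The authors aligned reads to mm9 with STAR and deposited whole-number counts per Ensembl gene from HTSeq, made without strand. Reads that HTSeq put in no gene were left out of totals and tests. Genes with 0 counts in 2 or more libraries were removed, following the study's filter. Counts were scaled by TMM factors (0.944 to 1.13) and tested with the quasi-likelihood test of edgeR 4.0.16 (robust, R 4.3.3) over all 12 libraries as 4 groups, with Benjamini-Hochberg adjustment over 14904 genes. A gene passed at an adjusted p under 0.05, and a call also needed a change of over 2-fold. CPM were counts relative to the scaled totals, log2 CPM used a prior of 2 counts, and RPKM divided CPM by the exonic length of the mm9 annotation. SEs are the size of the fold change over the root of F. The test was checked on simulated counts. Alternatives used DESeq2 1.42.0, limma 3.58.1 (voom), other scalings and filters, the comparison's 6 libraries alone, a replicate block, the share of reads outside genes as a covariate, and each library left out in turn. Counts of genes past the adjusted p alone were added as a result under each alternative after the data were seen.

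The 52 genes, the gene and marker lists and the promoter letters were chosen with earlier results of these data known. Values in every library were given for the gene with the highest and the one with the lowest fold change past the test in each role (with FFSS in either genotype, and between genotypes in static culture) and for a set list of E2f1, Pcna, Mcm2, Mcm5, Rrm2, the cyclins, Cdk1, Mki67, Top2a, Foxm1, Plk1 and the CDK inhibitors. Others were named where a count turned on them or as further examples, and at most the 2 highest and 2 lowest past the test from each further list. Values by library of Cdc45 and Gins1 in static culture, of Mcm6 with FFSS in control cells and of Cdc20 under FFSS were given outside these rules. With 17.6 to 19.2 M counts per library, 3 counts, the limit that a count of 0 allows, equal 0.156 to 0.171 CPM, and this covers counting error only. Promoters and their coordinates are RefSeq's for GRCm38.p6 and were not mixed with mm9 coordinates.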

Additional observations from a re-analysis of the deposited data

Results flagged for a closer look

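For 3 of the 51 genes the effect of FFSS differed between DKO and control cells by the interaction term (edgeR quasi-likelihood test, adjusted over all genes tested). Of these, 1 was higher and 2 lower, against 2.28% higher and 1.68% lower among all genes. The difference, DKO minus control, was 0.46 for E2f1 (adjusted p = 0.00821), which was lower in 3 of 3 control FFSS libraries than in any control static library and overlapped between static and FFSS in DKO cells. It was −0.49 for Ccnd1 (adjusted p = 0.0157), which was higher in 3 of 3 control FFSS libraries and overlapped in DKO cells. It was −0.42 for Kif20a (adjusted p = 0.0185), which was higher in 3 of 3 control FFSS libraries and lower in 3 of 3 DKO FFSS libraries. Among all genes 19.3% were separated higher and 22% lower in this way in control cells, and 14% and 15.9% in DKO cells. E2f1 passed in all 20 alternative fits. Ccnd1 lost the call when any 1 of 5 libraries was left out (adjusted p up to 0.0588), and Kif20a when any 1 of 4 was (adjusted p up to 0.0647). In those fits both values kept their sign and most of their size.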

How the results depend on the processing

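Of the log2 fold changes that passed, 1969 values under alternatives kept their direction and side of the threshold, 168 kept the direction and no longer passed, and 2 reversed: with the share of reads outside genes as a covariate, FFSS in control cells gave −0.11 for Pole and −0.29 for Ccnd2 (the cause was not tested). Some values that had not passed also turned with that covariate, such as those between genotypes of Cdkn1a in static cells (0.10) and of Ccnd2 under FFSS (0.23). Within groups the share varied most in control FFSS, so this covariate largely follows the difference of replicate 1 there. Genes that passed in every alternative fit run (21, or 20 for the interaction) numbered 5 of 22 for FFSS in control cells (Bub1, Ccna2, Ccnd1, Ccne1, E2f1), 0 of 5 for FFSS in DKO cells, 1 of 3 for the interaction (E2f1), 29 of 32 for genotype in static cells and 33 of 40 under FFSS. Counts below are of genes past the adjusted p, higher and lower, unless 2-fold is named. Percentages in brackets in this paragraph are the shares of all genes. FFSS in control cells: 15 and 9 with library totals alone (27.5% and 11.2%), 2 and 7 with 6 libraries (8.25% and 8.28%), 3 and 5 with the covariate (6.86% and 8.51%), and 7 and 15 with no fold limit (17.7% and 18.1%). There the 2-fold calls were 0 and 0 with the 6 libraries and with the covariate, and 0 higher by limma-voom. FFSS in DKO cells: 1 and 17 with 6 libraries (6.15% and 5.78%), 2 and 14 with the covariate (5.02% and 4.93%), 8 lower by DESeq2 (1.22%), 3 lower with the replicate block (0.268%), and 5 lower with no fold limit (0.497%). Interaction: 5 lower with totals alone (4.01%), 2 and 4 with the covariate (3.76% and 2.1%), 1 and 2 with no fold limit (2.28% and 1.68%). Genotype in static cells: 7 higher with 6 libraries (32.6%) and with the covariate (28.6%), where the 2-fold call of Ccnd2 was lost (0), and 4 and 28 with no fold limit (27% and 27.2%). Genotype under FFSS: 1 higher with totals alone (18.5%), where the 2-fold calls were 4 lower, 1 higher 2-fold call by limma-voom, and 4 and 36 with no fold limit (27% and 29.6%).

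Leaving out each library in turn gave, higher and lower, 3 to 10 and 9 to 21 for FFSS in control cells (2-fold calls 0 to 1 in each direction), 0 to 1 and 0 to 17 for FFSS in DKO cells (2-fold calls 0), 1 to 4 and 0 to 13 for the interaction (2-fold calls 0 to 1 in each direction), 4 to 7 and 27 to 34 for genotype in static cells (2-fold calls 1 in each direction) and 3 to 7 and 33 to 37 under FFSS (2-fold calls 0 to 1 in each direction). Shares of all genes in these fits, higher and lower, were 12 to 26.8% and 12.4 to 28.4% for FFSS in control cells. For FFSS in DKO cells they were 0.0268 to 4.86% and 0.0604 to 5.66%, and for the interaction 0.825 to 20% and 0.356 to 17.7%. For genotype they were 24 to 32% and 24.3 to 32% in static cells and 24.2 to 31% and 25.8 to 34.1% under FFSS. Replicate numbers are shared by the groups but were not found to pair libraries: deviations of same-numbered libraries had a mean correlation of 0.00226 over 18 pairs, against −0.00116 over 36 pairs of different numbers. With the replicate block, counts were 6 and 12, 0 and 3, 1 and 2, 4 and 29, and 4 and 36 in the same order. Shares of all genes were then 16.6% and 17.9%, 0.201% and 0.268%, 1.83% and 0.98%, 26.6% and 27%, and 26.8% and 29%. With all libraries the SE did not follow depth in every gene. With FFSS in control cells it was 0.40 for Cdkn1a and 0.46 for Ccnd2, against 0.10 for E2f2, the gene with the lowest level per length. Without control FFSS replicate 1 that order was reversed, with 0.07 for Cdkn1a, 0.08 for Ccnd2 and 0.10 for E2f2.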
